A study of Mus musculus with 12 samples.

Results

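Gene expression was compared directly between Th9 cells treated with EpA alone and Th9 cells treated with fatostatin alone, to find which programs tell the compounds apart. The comparison uses 6 of the 12 RNA-seq libraries of the study, 3 for each compound, chosen by their treatment labels, and the 13733 of 32051 genes whose level averaged 0.1 FPKM or more in all 12. FPKM are read counts scaled by gene length and library size, and differences are given as EpA minus fatostatin on the scale of log2(FPKM + 0.1), so that a positive value means a higher level with EpA. Because 0.1 is added before the logarithm, the change of a weakly expressed gene is understated. In this text "higher" and "lower" refer to genes with an adjusted p below 0.05 in limma, and a gene is "called" when its fold change is also at least 1.5.

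All groups were naive CD4+ T cells from the spleens of C57BL/6J mice, activated through CD3 and CD28 by antibodies and driven toward the Th9 fate by TGF-β (1 ng/mL) and IL-4 (10 ng/mL), with antibodies that block IL-12 and IFN-γ in the first 3 days. RNA was taken on day 4. EpA (endomelipeptide A) is a cyclic peptide from endophytic fungi, and fatostatin is an inhibitor of the sterol regulatory element-binding proteins (SREBPs). The study used 10 μM EpA and 5 μM fatostatin, so the doses differ and the values below compare these treatments, not equal amounts of the compounds. The 3 libraries treated with DMSO, the vehicle, serve as the background for both compounds, and the 3 libraries that received EpA and fatostatin together enter only the choice of the genes tested and the estimate of the spread. The methods give an age of 6 to 8 weeks for all mice of the study. The study speaks of independent Th9 samples, but neither the labels nor the methods say whether the 3 libraries of a group came from separate mice or cultures, so p-values measure the spread between these libraries, which may be technical.

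Th9 cells are the CD4+ T cell type defined by secretion of IL-9, and they arise when IL-4 acts through STAT6 and TGF-β through SMAD proteins on factors such as BATF, IRF4, and PU.1. SREBP1 and SREBP2 are membrane-bound transcription factors that SCAP carries from the endoplasmic reticulum to the Golgi when sterols are low, where cleavage releases the part that activates genes of fatty acid and cholesterol synthesis. The aryl hydrocarbon receptor (AHR) is a ligand-activated factor that pairs with ARNT and induces *Cyp1a1*, *Cyp1b1*, *Ahrr*, and *Tiparp*, and p53 is a stress-activated factor that induces *Cdkn1a*, *Mdm2*, and genes of cell death.

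Replicates correlated with r from 0.985 to 0.987 (6 pairs) and libraries of different compounds with r from 0.980 to 0.981 (9 pairs), across genes (genes are no independent replicates). Depth was similar, since 1 read on a gene of 1 kb was worth 0.0225 to 0.0273 FPKM over the 12 libraries. The 7 matched T cell marker genes summed to 520.9 to 525.8 FPKM with EpA and to 577.1 to 593.3 FPKM with fatostatin, and 5 of them (*Cd3d*, *Cd3e*, *Cd3g*, *Cd5*, and *Cd28*) were lower with EpA, while *Cd4* and *Lck* did not pass the test. Markers of CD8 T and NK cells summed to 11.1 to 11.7 FPKM with EpA and to 12.4 to 13.9 FPKM with fatostatin, and 3 of their 5 tested genes (*Cd8a*, *Eomes*, and *Klrd1*) were lower with EpA. B cell markers summed to 6.03 to 6.96 FPKM with EpA and to 8.18 to 9.14 FPKM with fatostatin, with *Cd79a* and *Cd79b* lower with EpA and *Ms4a1*, *Pax5*, and *Cr2* below the minimum for testing. Macrophage, dendritic cell, mast cell, and erythroid markers each summed to at most 2.64 FPKM in any of the 6 libraries, 0 of their tested genes passed the test, and *C1qa*, *C1qb*, *Clec9a*, *Siglech*, *Cd209a*, and *Hba-a2* were listed at 0. The mast cell and basophil markers summed to 1.615 to 2.547 FPKM with EpA and to 1.404 to 1.586 FPKM with fatostatin. For macrophage, dendritic cell, and erythroid markers the ranges of the compounds overlapped. The cells had been purified with a naive CD4 T cell isolation kit, a step meant to remove other cell types, and the part of these marker shifts in the results below was not tested. In bulk samples, fewer cells of a type and less RNA per cell cannot be told apart.

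Windows around the transcription start (250 bases before to 50 after, RefSeq, build GRCm38.p6) are shown for 3 genes that stand for the programs described most fully below, the cytokine *Il9*, the sterol gene *Hmgcs1*, and the AHR target *Cyp1a1*. Capitals mark a match to the motif named for each window, searched on both strands. For *Il9* (chr13:56482208-56482507, minus strand) the motif was the AP-1 element TGANTCA, a kind bound by dimers that include BATF, which 7.81% of all 32851 windows hold, and its first base lies at position -140 from the start.
Il9: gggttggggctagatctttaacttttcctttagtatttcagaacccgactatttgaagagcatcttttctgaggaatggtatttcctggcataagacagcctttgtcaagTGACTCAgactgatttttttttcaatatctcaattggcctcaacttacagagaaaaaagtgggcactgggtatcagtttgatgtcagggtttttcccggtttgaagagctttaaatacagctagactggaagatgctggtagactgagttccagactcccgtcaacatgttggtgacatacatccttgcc
For *Hmgcs1* (chr13:119690101-119690400, plus strand) the motif was the sterol regulatory element TCACNCCAC, found in 1.24% of windows, with its first base at -137.
Hmgcs1: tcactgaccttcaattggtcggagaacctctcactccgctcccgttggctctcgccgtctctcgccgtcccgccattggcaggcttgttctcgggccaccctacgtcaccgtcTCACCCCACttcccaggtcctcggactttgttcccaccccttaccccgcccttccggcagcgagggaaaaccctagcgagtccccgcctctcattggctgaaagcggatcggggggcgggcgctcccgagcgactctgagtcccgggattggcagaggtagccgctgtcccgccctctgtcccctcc
For *Cyp1a1* (chr9:57697363-57697662, plus strand) the xenobiotic response element TNGCGTG, found in 5.07% of windows, was searched and had 0 matches, which says only that these letters are not in this window.
Cyp1a1: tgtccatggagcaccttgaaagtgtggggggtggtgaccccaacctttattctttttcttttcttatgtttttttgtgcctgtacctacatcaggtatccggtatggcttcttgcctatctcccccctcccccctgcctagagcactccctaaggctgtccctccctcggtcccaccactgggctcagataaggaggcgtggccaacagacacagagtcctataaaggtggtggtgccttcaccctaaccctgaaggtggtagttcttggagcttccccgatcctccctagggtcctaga
The lists were counted over tested genes, with only the first window listed for each gene. Of cytokine genes 2 of 7 held the AP-1 element, beside 4.85% of the first windows of all tested genes. The sterol element was in 1 of 19 cholesterol genes and 0 of 21 fatty acid synthesis genes (1.05% of tested genes). The xenobiotic element was in 1 of 9 AHR targets, *Ahrr* (8.33% of tested genes). A second window of the fatty acid gene *Acsl1* held 1 match to the sterol element. A match describes the sequence and does not show that a factor binds there.

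Of the 13733 genes tested, 252 were called higher with EpA (1.83%) and 484 lower with EpA (3.52%), which is to say higher with fatostatin. At an adjusted p below 0.05 without the fold threshold, 2426 genes were higher and 2430 lower (17.7% each), and the median difference over all genes was -0.0055. Of the 736 called genes, 722 had no overlap between the 3 EpA and the 3 fatostatin libraries, against 47.8% of all tested genes. The calls rest on the same values, so this lack of overlap is no separate support for them. The called genes were often weakly expressed, since 353 of them (48.0%) had a mean below 1 FPKM. At a fold of at least 2, 86 genes were higher and 155 lower. With a pseudocount of 1 in place of 0.1, which shrinks the fold of weak genes, 80 genes were called higher and 174 lower. With 3 libraries against 3, exact two-sided permutation of the labels for 1 gene reaches no p lower than 0.1, so genes are reported with the adjusted p of limma from the fit across all genes.

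**Figure D1:**
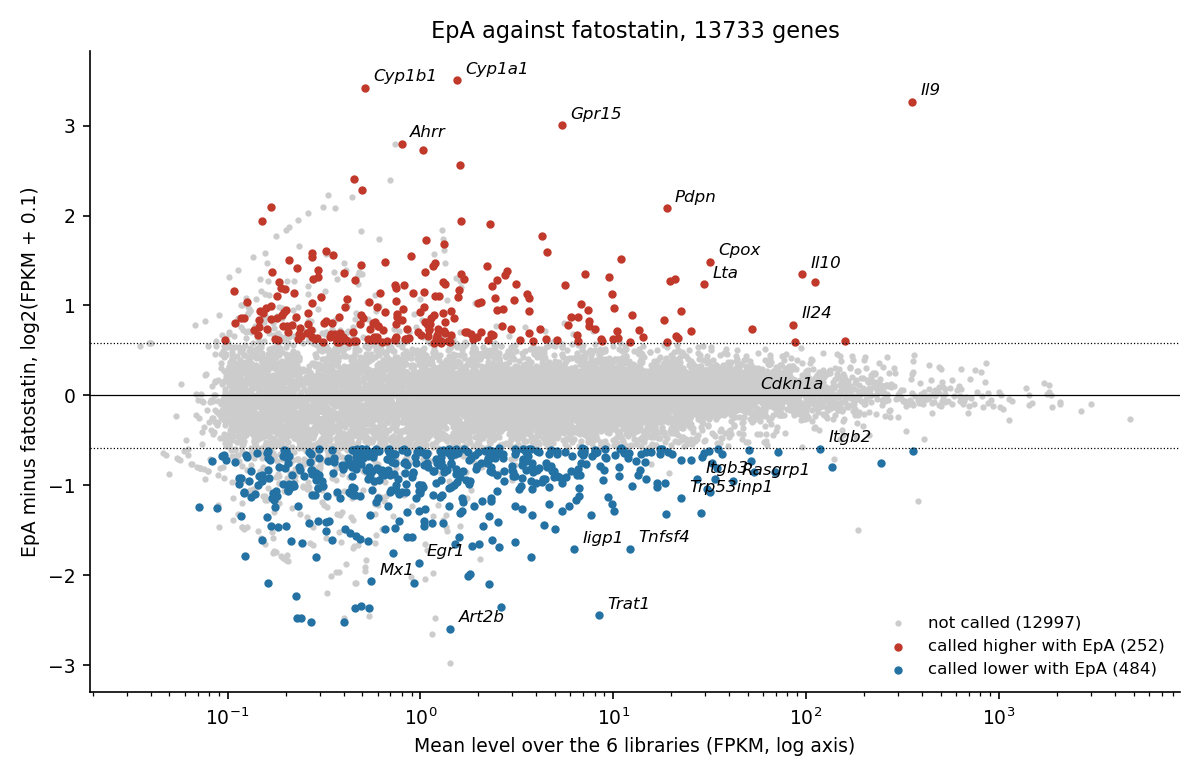
Each point is 1 of 13733 genes, with its mean level over the 6 libraries (FPKM, log axis) on the horizontal axis and the difference EpA minus fatostatin on the vertical axis, log2(FPKM + 0.1). Red and blue points are the 252 genes called higher and the 484 called lower with EpA, dotted lines mark a fold of 1.5, and *Il9* stands out as the gene of high level with a difference of 3.27.

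Beside each difference, the level of the gene in DMSO libraries shows where the vehicle stood. Against DMSO, 14.3% of genes were higher and 13.1% lower with EpA, and 7.69% were higher and 6.31% lower with fatostatin. Both sets of values share the 3 DMSO libraries, so they are given side by side, and no difference between them was tested. The lists of genes, and those members described for their place in a list, were chosen after earlier results of these data were known.

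*Il9* (ENSMUSG00000021538, chromosome 13 of GRCm38, 56479277 to 56482246, minus strand), the defining cytokine of Th9 cells, was measured at 619.9, 652, and 648 FPKM with EpA and at 67.9, 60.7, and 70.8 FPKM with fatostatin. The 3 EpA libraries lay far above the 3 fatostatin libraries, with 13217 to 14707 reads against 1296 to 1616. The difference was 3.27 (SE 0.0566, adjusted p = 1.65e-11), a fold of 9.63. The DMSO libraries held 54.6 ± 3.38 FPKM (SD, n = 3), so *Il9* was higher with either compound than with DMSO, by 3.55 with EpA (adjusted p = 2.17e-11) and by 0.28 with fatostatin (adjusted p = 0.00652).

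Among the genes with the largest difference toward EpA, *Cyp1a1*, a cytochrome P450 and the classic target of AHR, had a difference of 3.51 (adjusted p = 3.67e-08), and *Gpr15*, a homing receptor for the colon, of 3.01 (adjusted p = 3.86e-08). *Car8*, a carbonic anhydrase-related protein without that enzymatic activity, differed by 2.56 and was measured at 2.80 ± 0.128 FPKM with EpA, 0.401 ± 0.111 FPKM with fatostatin, and 1.86 ± 0.0966 FPKM with DMSO (SD, n = 3). *Pdpn*, which encodes the glycoprotein podoplanin, was measured at 29.9, 31.8, and 30.2 FPKM with EpA and at 7.11, 7.08, and 7.24 FPKM with fatostatin, on either side of 16.8 ± 0.738 FPKM in DMSO libraries. Its difference was 2.08 (SE 0.0395), and it was higher than DMSO with EpA (0.86) and lower with fatostatin (-1.22). *Asb2*, a subunit of a ubiquitin ligase, and *Ermn* had the same arrangement, with differences of 1.91 and 1.60 and DMSO means of 1.82 and 3.76 FPKM between those of the compounds.

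*Il1rn*, which encodes the secreted antagonist of the IL-1 receptor, differed by 1.93 and stood at 2.63 ± 0.218 FPKM with EpA against 0.613 ± 0.0153 FPKM with fatostatin and 0.604 ± 0.0620 FPKM with DMSO (SD, n = 3). For *Il1rn* the difference from DMSO was 1.96 with EpA and 0.022 with fatostatin (adjusted p = 0.911). *Gpr55*, a receptor for lysophospholipids (difference 1.77), *Mlkl*, the executioner of necroptosis (1.52), and *Cpox*, an enzyme of heme synthesis (1.49), differed from DMSO by 0.37, 0.18, and 0.17 with EpA and by -1.40, -1.33, and -1.31 with fatostatin. *Olr1*, a receptor for oxidized low-density lipoprotein, differed by 1.68 and was higher than DMSO with EpA (1.18) and lower with fatostatin (-0.51). *Gpr15* and *Cpox* overlap on opposite strands, and whether the counting used strand is not stated, so reads in the shared stretch cannot be assigned to either gene.

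Among the genes with the largest difference toward fatostatin, *Trat1*, an adaptor associated with the T cell receptor, was measured at 2.54, 2.74, and 2.43 FPKM with EpA and at 13.9, 14.2, and 15.1 FPKM with fatostatin. The groups did not overlap, the difference was -2.44 (SE 0.0482, adjusted p = 3.91e-11), and the DMSO level of 7.13 ± 0.233 FPKM (SD, n = 3) lay between them. *Tnfsf4*, the gene of the costimulatory ligand OX40L, was measured at 6.09, 5.50, and 5.49 FPKM with EpA, at 19.4, 18.4, and 18.4 FPKM with fatostatin, and at 7.42, 6.70, and 6.33 FPKM with DMSO. The fatostatin libraries were the high ones, and the difference was -1.70 (SE 0.0559, adjusted p = 2.87e-09). *Art2b*, an ecto-ADP-ribosyltransferase of T cells, differed by -2.59 (adjusted p = 2.37e-06), at 0.351 ± 0.169 FPKM with EpA, 2.50 ± 0.0844 FPKM with fatostatin, and 0.688 ± 0.107 FPKM with DMSO (SD, n = 3).

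*Car2*, a carbonic anhydrase (-2.09), *Ipcef1* (-1.99), and *Nrgn* (-1.63) were lower than DMSO with EpA and higher with fatostatin. *Frmpd1* (-2.01), *Il17rb*, a receptor chain for IL-25 (-1.80), and *Iigp1*, an interferon-induced GTPase (-1.71), differed mainly by a low level with EpA, with differences from DMSO of -1.67, -1.58, and -1.36 for EpA and of 0.33, 0.22, and 0.35 for fatostatin. *Serpina3f*, a serine protease inhibitor (-1.67), and *Sidt1* (-1.66) were lower than DMSO with EpA, and their fatostatin levels did not pass the test against DMSO. *Trgj1*, a joining segment of the T cell receptor γ locus, met the same criteria as a segment of 60 bases, with 1 to 3 reads per library with EpA, 5 to 11 with fatostatin, and 7 to 8 with DMSO, so no fold is given for it. *Il17rb* overlaps *Actr8* on the opposite strand.

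**Figure D2:**
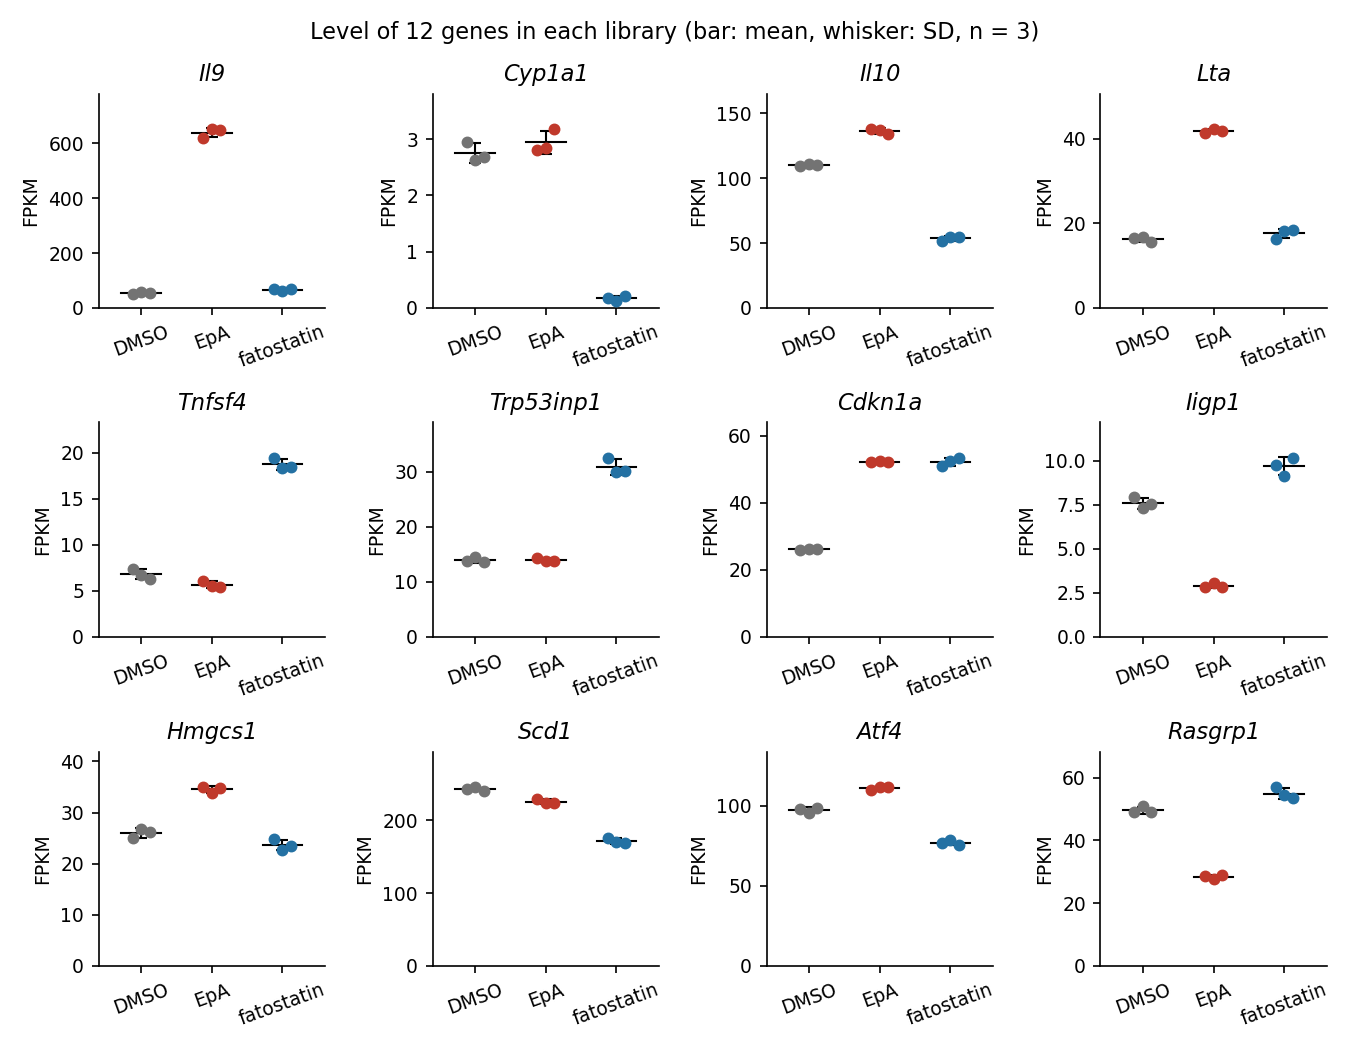
Level in FPKM of 12 genes in each library treated with DMSO (grey), EpA (red), or fatostatin (blue), with a bar at the mean, a whisker of 1 SD (n = 3), and each vertical axis starting at 0. EpA libraries stand apart for *Il9* and *Lta*, fatostatin libraries for *Cyp1a1*, *Tnfsf4*, and *Trp53inp1*, and the groups of both compounds overlap for *Cdkn1a*, above DMSO.

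The AHR targets had the largest median difference of the 44 gene lists. Of 16 listed genes, the receptor and its partner included, 10 were tested, 7 were called higher with EpA and 1 lower, and the median difference was 1.55 (1.02 with a pseudocount of 1), beside -0.0055 over all genes. Against DMSO the median was 0.16 with EpA and -1.33 with fatostatin, and 7 of the genes were lower and 1 higher than DMSO with fatostatin, while 5 were higher and 0 lower with EpA. *Cyp1a1* was measured at 2.81, 2.84, and 3.18 FPKM with EpA, at 0.170, 0.126, and 0.213 FPKM with fatostatin, and at 2.95, 2.63, and 2.68 FPKM with DMSO. The fatostatin libraries held only 14 to 24 reads of the gene, and its level with EpA did not pass the test against DMSO (0.091, adjusted p = 0.74). Among list members picked out after their values were seen, *Ahrr*, which encodes a repressor of AHR, stood at 1.48 ± 0.0439 FPKM with EpA, 0.126 ± 0.0189 FPKM with fatostatin, and 1.26 ± 0.0787 FPKM with DMSO (SD, n = 3). *Tiparp*, a mono-ADP-ribosyltransferase that also restrains AHR, had the same order, at 13.7 ± 0.335, 6.17 ± 0.0835, and 11.5 ± 0.254 FPKM. *Cyp1b1*, another cytochrome P450 induced by AHR, was measured at 1.04, 1.03, and 1.02 FPKM with EpA (239 to 253 reads), at 0, 0, and 0.0169 FPKM with fatostatin (0 to 4 reads), and at 0.286 ± 0.0246 FPKM with DMSO. It was the highest with EpA in every library, and its difference of 3.42 depends on the pseudocount, being 1.01 with a pseudocount of 1 and 6.22 with 0.01. Against DMSO it was higher with EpA by 1.55 (adjusted p = 3.36e-05).

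*Nqo1*, a quinone reductase that both AHR and NRF2 induce, differed by 1.34, with 3.98 ± 0.190 FPKM with EpA, 1.52 ± 0.255 FPKM with fatostatin, and 3.76 ± 0.220 FPKM with DMSO (SD, n = 3). *Gpr15* was measured at 9.45, 9.48, and 10.2 FPKM with EpA and at 1.06, 1.09, and 1.21 FPKM with fatostatin. *Ugt1a7c*, a glucuronosyltransferase that shares exons with its neighbors so that its reads are uncertain, went the other way, with a difference of -1.11 (adjusted p = 0.000368). The genes of the receptor and its partner did not pass the test. The difference of *Ahr* was 0.054 (95% confidence interval 0.0017 to 0.11, adjusted p = 0.103), and that of *Arnt* was -0.026 (-0.089 to 0.037, adjusted p = 0.533).

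The p53 targets had the most negative median. Of 23 tested genes, 19 were lower with EpA and 0 higher, 4 were called (*Trp53inp1*, *Fas*, *Bbc3*, and *Sesn1*), and the median difference was -0.41. Against DMSO, 20 were higher and 0 lower with fatostatin (median 0.65), and 13 were higher and 2 lower with EpA (median 0.20). *Trp53inp1*, which promotes autophagy and cell death, was measured at 14.3, 13.8, and 13.8 FPKM with EpA, at 32.5, 30.0, and 30.2 FPKM with fatostatin, and at 13.8, 14.5, and 13.6 FPKM with DMSO. The fatostatin libraries stood alone, and the difference was -1.14 (SE 0.0358, adjusted p = 2.09e-09). *Fas*, the death receptor, had a difference of -0.92, with 10.2 ± 0.348 FPKM with EpA, 19.5 ± 1.18 FPKM with fatostatin, and 13.2 ± 0.529 FPKM with DMSO (SD, n = 3). *Bbc3*, which encodes the proapoptotic protein PUMA, differed by -0.81, and *Sesn1*, a stress-induced inhibitor of mTORC1, by -0.61.

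Not every p53 target differed. *Cdkn1a*, which encodes the cell cycle inhibitor p21, was measured at 52.3, 52.4, and 52.0 FPKM with EpA and at 50.9, 52.5, and 53.3 FPKM with fatostatin, against 26.0, 26.3, and 26.3 FPKM with DMSO. The groups of the compounds overlapped, the 95% confidence interval of the difference was -0.049 to 0.049 (adjusted p = 0.994), and the gene was higher than DMSO by 0.99 with EpA (adjusted p = 4.26e-10) and by 0.99 with fatostatin (adjusted p = 2.89e-10). *Mdm2*, the ubiquitin ligase that degrades p53, was higher with fatostatin (21.9 ± 0.267 FPKM) than with EpA (15.3 ± 0.483 FPKM), with 13.7 ± 0.249 FPKM in DMSO libraries (SD, n = 3). *Ccng1*, cyclin G1, had the same order, with a difference of -0.26. *Phlda3*, an inhibitor of AKT, and *Plk2*, a kinase, were higher than DMSO with EpA (0.65 and 0.78) and with fatostatin (1.04 and 1.04), and differed by -0.39 and -0.26 between the compounds. The gene of p53 itself, *Trp53*, had a difference of 0.022 (95% confidence interval -0.041 to 0.085, adjusted p = 0.603).

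The genes that ATF4 induces when amino acids are short were for the most part higher with EpA than with fatostatin. Of 34 tested members, 21 were higher (6 called) and 3 lower (0 called), with a median difference of 0.28 (0.17 with a pseudocount of 1), and the medians against DMSO were 0.10 with EpA and -0.17 with fatostatin. With fatostatin 14 members were lower and 1 higher than DMSO, and with EpA 14 were higher and 1 lower. *Atf4* itself was measured at 110.0, 112, and 112 FPKM with EpA and at 76.5, 78.3, and 75.8 FPKM with fatostatin, with 97.3 ± 1.71 FPKM in DMSO libraries (SD, n = 3). The groups did not overlap, and the difference was 0.53 (SE 0.0218, adjusted p = 1.25e-08). *Chac1*, which degrades glutathione, differed by 1.04 (adjusted p = 3.44e-05), *Gpt2*, a mitochondrial alanine transaminase, by 0.69, and *Trib3*, a pseudokinase that feeds back on ATF4, by 0.67. *Asns*, asparagine synthetase, differed by 0.40, *Slc7a5*, a transporter of large neutral amino acids, by 0.35, and *Shmt2*, an enzyme of the mitochondrial folate cycle, by 0.30. The aminoacyl-tRNA synthetases, which charge tRNAs with amino acids, had 19 of 23 members higher with EpA, 1 lower, and a median difference of 0.20. Against DMSO, 13 of them were lower and 0 higher with fatostatin, and *Iars1* (difference 0.40) and *Yars1* (0.31) were among the lower ones.

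**Figure D3:**
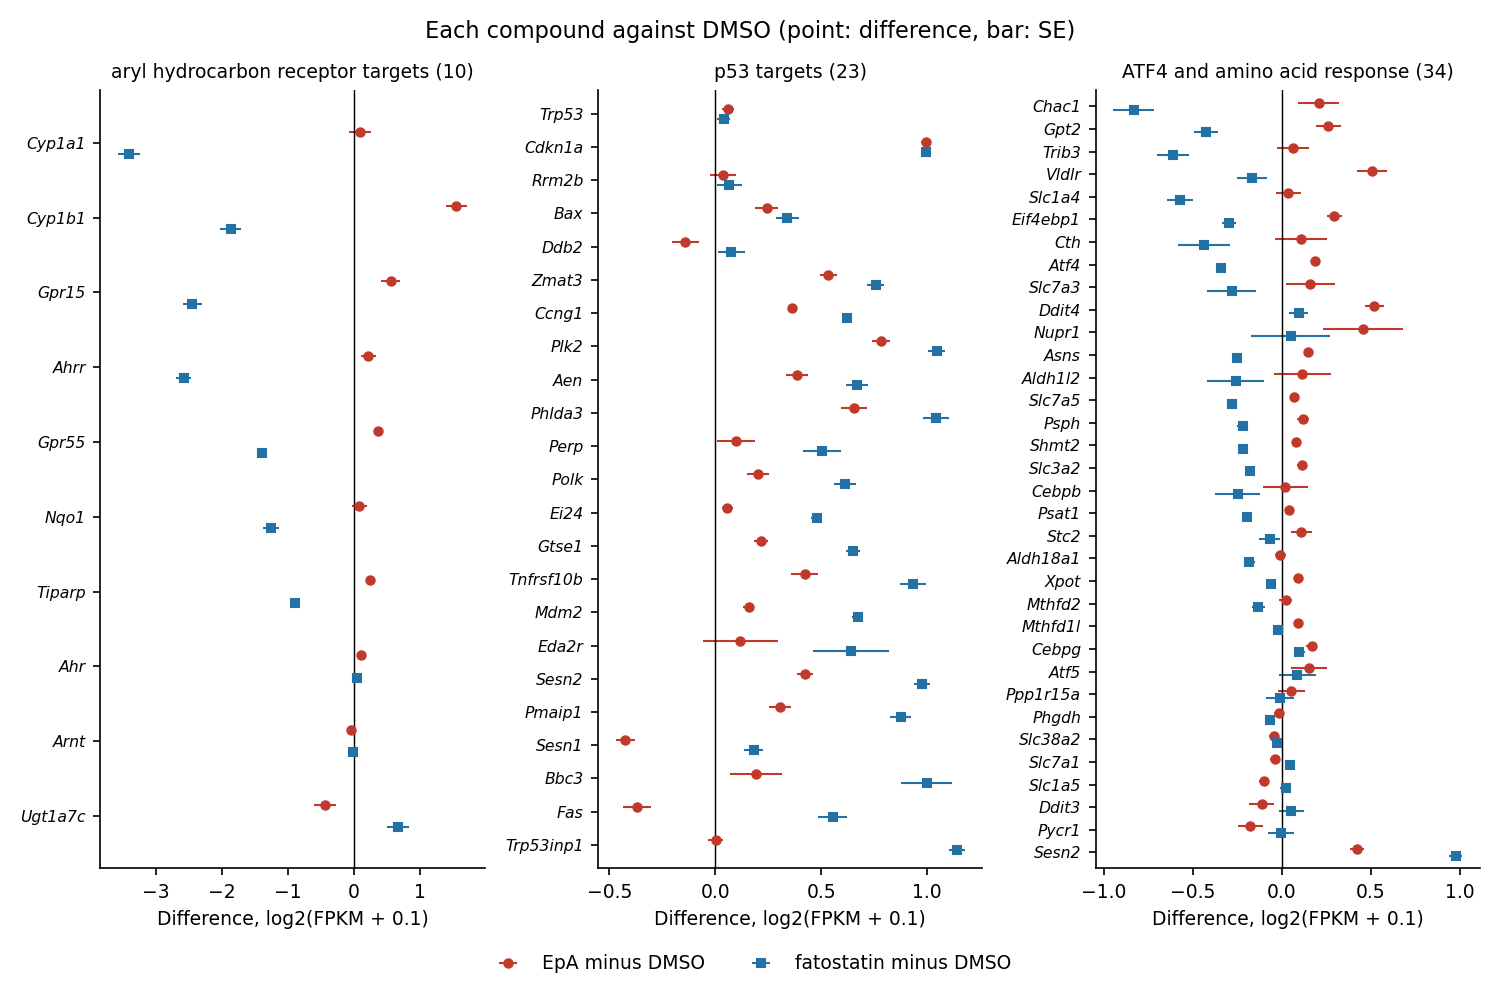
Difference of each compound from DMSO on the log2(FPKM + 0.1) scale, EpA as red circles and fatostatin as blue squares with bars of 1 SE, for the tested members of 3 gene lists. With fatostatin, 7 of 10 AHR targets passed the test below DMSO and 20 of 23 p53 targets above it, while *Cdkn1a* lies at 0.99 with both compounds.

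The lipid genes that SREBPs control differed between the compounds with small folds. Of 26 tested genes of cholesterol synthesis and uptake, 17 were higher with EpA and 1 lower (*Hsd17b7*), 0 were called, and the median difference was 0.17. Against DMSO, fatostatin lowered 10 and raised 1 of them (median -0.082), and EpA raised 9 and lowered 2 (median 0.072). *Hmgcs1*, the synthase that begins the mevalonate pathway, was measured at 35.0, 33.8, and 34.8 FPKM with EpA and at 24.8, 22.8, and 23.4 FPKM with fatostatin. The groups did not overlap. Its difference was 0.54 (adjusted p = 4.44e-07), and the DMSO level was 26.0 ± 0.966 FPKM (SD, n = 3). *Sqle*, the squalene epoxidase, and *Cyp51*, the lanosterol demethylase, differed by 0.35 and 0.31, and *Insig1*, which retains SCAP in the endoplasmic reticulum, by 0.20.

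Of 24 tested genes of fatty acid synthesis, 11 were higher with EpA and 4 lower, with a median difference of 0.12, and 1 was called (*Fads3*, at 0.565 against 0.339 FPKM). Against DMSO, 7 were higher and 6 lower with EpA (median 0.11), and 2 were higher and 8 lower with fatostatin (median -0.055). *Scd1*, the desaturase that makes monounsaturated fatty acids, was measured at 229, 224, and 224 FPKM with EpA, at 176, 170.1, and 169 FPKM with fatostatin, and at 243, 246, and 241 FPKM with DMSO. Every group stood apart from the others, with a difference between the compounds of 0.39 (adjusted p = 3.67e-08) and differences from DMSO of -0.11 with EpA and -0.50 with fatostatin. *Fads2*, a desaturase for polyunsaturated fatty acids, differed by 0.31, *Elovl1*, an elongase, by 0.24, and *Fasn*, fatty acid synthase, by 0.16. *Fads1* did not pass the test (difference 0.043, 95% confidence interval -0.015 to 0.10, adjusted p = 0.239), and *Scd2* was near the threshold (0.067, adjusted p = 0.0468, and 0.0723 to 0.143 when any library but replicate 1 of fatostatin was left out). *Scd2* also lost its pass with the replicate block (0.0520), TPM scaling (0.140), no filter on low values (0.0961), and no variance trend (0.107). *Elovl1* overlaps *Cdc20*, and *Cyp51* overlaps *Akap9*, on the opposite strand.

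The regulators themselves differed in both directions. *Srebf1* was lower with EpA (30.9 ± 0.504 FPKM) than with fatostatin (34.2 ± 0.645 FPKM), a difference of -0.15 (adjusted p = 0.000445), and lower with either than in DMSO libraries (37.3 ± 0.835 FPKM, SD, n = 3). *Srebf1* overlaps *Rai1* on the opposite strand. *Srebf2* was higher with EpA (0.087), and *Scap* (-0.21) and *Mbtps1*, the protease that makes the first cleavage of SREBPs (-0.17), were lower. Over the 9 genes of SREBP processing, 2 were higher and 4 lower, with a median of 0.032 (0.012 to 0.049 when 1 library was left out, lowest without fatostatin replicate 1 and highest without EpA replicate 1). Of 18 genes of cholesterol export and other targets of the liver X receptors (LXR), 8 were lower with EpA and 1 higher, with a median difference of -0.15 (-0.10 without fatostatin replicate 2). *Abcg1*, a cholesterol exporter, was called lower (-0.67, with 5.44, 4.94, and 5.64 FPKM with EpA and 8.62, 8.09, and 8.87 FPKM with fatostatin). *Abca1*, another exporter, was lower with a fold under 1.5 (-0.55), with EpA below DMSO (-0.26) and fatostatin above it (0.30). The medians of sphingolipid enzymes (29 tested, -0.0050) and of fatty acid oxidation genes (23 tested, -0.013) were near that of all genes and changed sign when a single library was left out (-0.032 to 0.0042, and -0.037 to 0.0074). Of sphingolipid enzymes 4 were higher and 7 lower, of which 2 were called, both below 1 FPKM (*Degs2*, a ceramide desaturase, with a difference of -0.94, and *Sgms2*, a sphingomyelin synthase, with -0.70). *Cerk*, ceramide kinase (-0.43), and *Sgpp1*, a phosphatase of sphingosine-1-phosphate (-0.36), were lower with a fold under 1.5. Of oxidation genes 4 were higher, *Eci2* (0.28) and *Acadm* (0.27) among them, and 5 lower. The shares higher and lower were 13.8% and 24.1% of sphingolipid enzymes and 17.4% and 21.7% of oxidation genes, beside 17.7% of all genes in each direction.

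**Figure D4:**
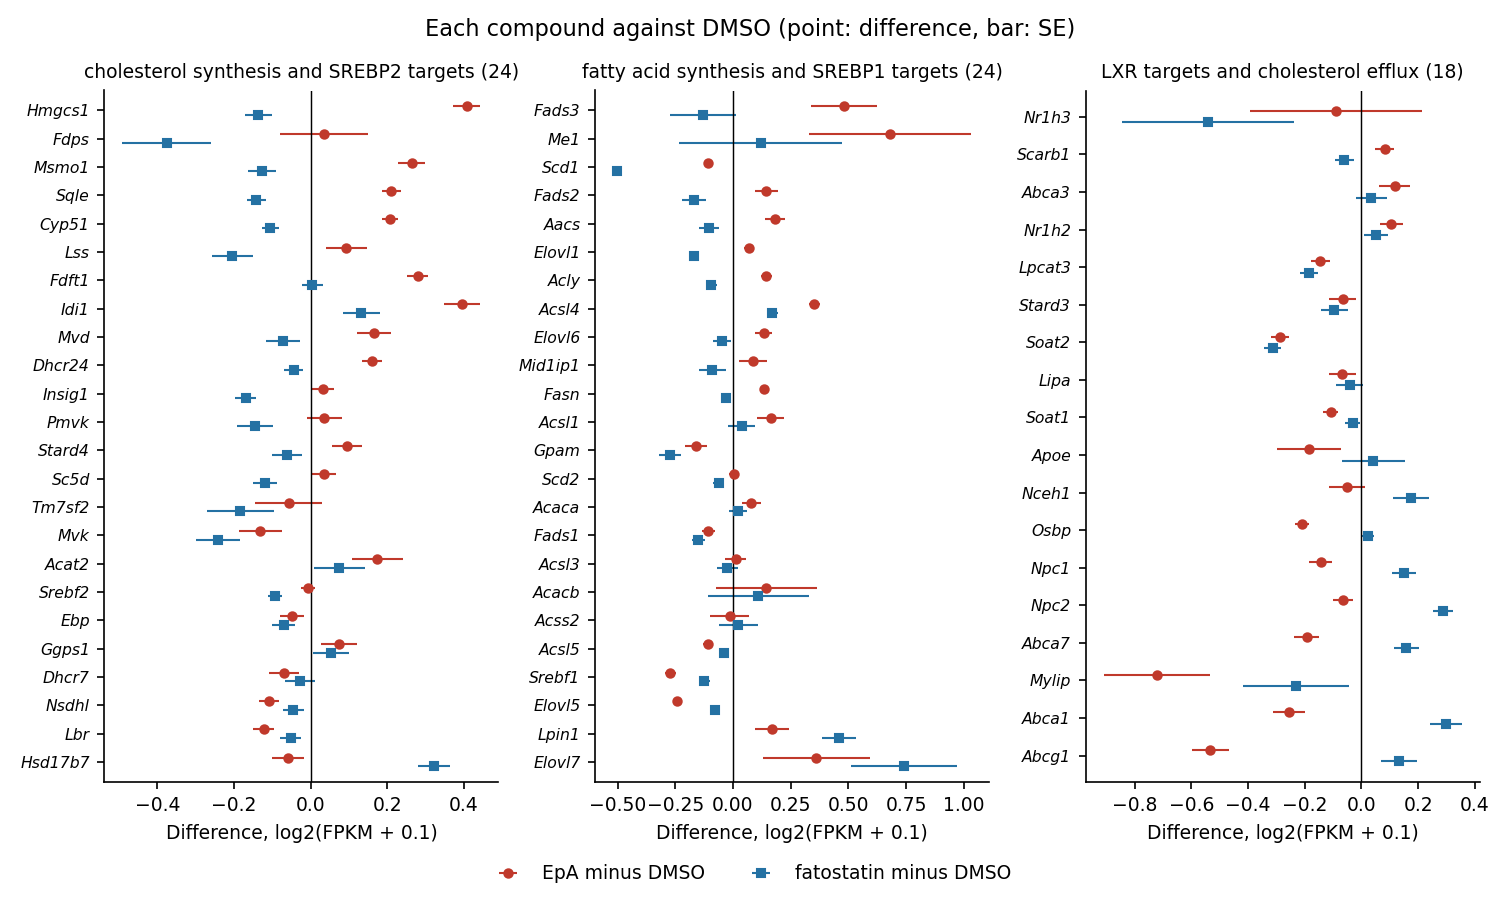
Difference of each compound from DMSO on the log2(FPKM + 0.1) scale, EpA as red circles and fatostatin as blue squares with bars of 1 SE, for tested genes of 3 lipid lists (the number drawn stands in each title). *Scd1* lies at -0.11 with EpA and -0.50 with fatostatin, and *Hmgcs1* at 0.41 with EpA and -0.14 with fatostatin.

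Cytokine genes were for the most part higher with EpA. Of 9 tested type 2 and Th9 cytokine genes, *Il9* included, 6 were higher (4 called) and 1 lower, with a median difference of 0.51 (0.79 among members that averaged 1 FPKM or more). *Il10*, the anti-inflammatory cytokine, was measured at 138, 137, and 134 FPKM with EpA and at 51.8, 54.5, and 54.6 FPKM with fatostatin, around a DMSO level of 110.1 ± 0.875 FPKM (SD, n = 3). The compounds differed by 1.35 (adjusted p = 1.65e-11), with EpA above DMSO (0.31) and fatostatin below it (-1.04). *Il21*, a cytokine that acts on B cells and CD8 T cells, differed by 1.44, with 3.28 ± 0.226 FPKM with EpA, 1.15 ± 0.111 FPKM with fatostatin, and 1.27 ± 0.108 FPKM with DMSO (SD, n = 3). *Il24*, an IL-10 family cytokine, differed by 0.79, *Il13*, a type 2 cytokine, by 0.51, and *Il4*, which drives its own lineage, by 0.29. *Il13* was higher than DMSO with each compound (0.84 with EpA and 0.33 with fatostatin). *Il4* with EpA did not pass the test against DMSO (0.013, adjusted p = 0.897) and was lower with fatostatin (-0.28). *Il5*, which acts on eosinophils, was lower with EpA (0.771 against 1.05 FPKM, difference -0.42, adjusted p = 0.0478), and it no longer passed when any EpA library but replicate 3, or any fatostatin library, was left out (adjusted p = 0.0793 to 0.169). It did not pass either with the replicate block (0.0613), by voom (0.121), without the filter on low values (0.0894), with only the 6 libraries (0.0562), or without the variance trend (0.0507).

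Factors that promote Th9 cells were divided. Of 24 tested, 5 were higher and 12 lower with EpA, 0 were called, and the median was -0.11. *Batf*, the AP-1 factor that cooperates with IRF4 at cytokine genes, was measured at 93.1, 96.7, and 96.1 FPKM with EpA and at 69.7, 74.1, and 70.5 FPKM with fatostatin, a difference of 0.42 (adjusted p = 4.98e-07), and fatostatin did not pass the test against DMSO (-0.081, adjusted p = 0.0754). *Irf4* was lower with EpA (143 against 162 FPKM, difference -0.18), as were *Gata3*, the master factor of type 2 cells (-0.26), and *Smad3*, a mediator of TGF-β signals (-0.49). *Runx3* and *Maf* were higher with EpA (0.44 and 0.41), with fatostatin below DMSO for both. *Spi1*, which encodes PU.1, was too low for the test, at 0.107 FPKM with EpA and 0.0421 FPKM with fatostatin.

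Genes of other T cell lineages differed in both directions. Of 18 tested, 5 were called lower (*Cxcr3*, *Eomes*, *Tbx21*, *Stat4*, and *Ikzf2*) and 2 higher (*Il17f* and *Il17a*). The median was -0.086, but it was -0.29 without fatostatin replicate 1, -0.18 and -0.16 without EpA replicates 2 and 3, and -0.40 among members that averaged 1 FPKM or more. With a pseudocount of 1 or 0.01 and by voom it was -0.040, -0.15, and -0.14. *Cxcr3*, a chemokine receptor of Th1 cells, differed by -1.49, with 2.83, 2.80, and 2.16 FPKM with EpA, 7.64, 6.80, and 7.79 FPKM with fatostatin, and 7.02 ± 0.525 FPKM with DMSO (SD, n = 3). *Tbx21*, the master factor of Th1 cells, differed by -0.85, being below DMSO with EpA (-0.52) and above it with fatostatin (0.33). *Ifng*, the Th1 cytokine, was lower with EpA (1.76 ± 0.334 against 2.46 ± 0.140 FPKM, SD, n = 3, difference -0.47). *Il17f* differed by 1.37 and *Foxp3*, the factor of regulatory T cells, by -0.47. *Il17a* was at 0.462 and 0.236 FPKM (adjusted p = 0.0373) and *Eomes* at 0.0711 and 0.222 FPKM, both at very low levels. *Eomes* is also one of the CD8 T and NK cell markers, whose sum was lower with EpA, and the part of such cells was not tested. *Il17a* no longer passed when any library but replicate 2 of fatostatin was left out (adjusted p = 0.0677 to 0.129), nor with the replicate block (0.0626), with only the 6 libraries (0.0600), or without the filter on low values (0.0603).

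Among ligands of the TNF superfamily, 3 of 12 tested were higher and 6 lower with EpA, with a median of -0.32. *Lta*, which encodes lymphotoxin-α, was measured at 41.4, 42.2, and 41.8 FPKM with EpA and at 16.4, 18.3, and 18.3 FPKM with fatostatin, and DMSO libraries held 16.2 ± 0.563 FPKM (SD, n = 3). The EpA libraries were the high ones, and the difference was 1.24 (SE 0.0481, adjusted p = 8.45e-09). *Tnf*, its neighbor on chromosome 17, was higher with EpA (5.46, 5.83, and 6.11 against 3.59, 3.57, and 4.61 FPKM, difference 0.56), below the fold threshold. *Tnfsf9*, the ligand of 4-1BB, was called higher (0.82), and *Tnfsf10*, which encodes TRAIL (-0.78), and *Tnfsf11*, which encodes RANKL (-0.66), were called lower together with *Tnfsf4*. *Fasl*, the ligand of the death receptor, did not pass the test (9.79 ± 0.387 against 9.67 ± 0.599 FPKM, SD, n = 3, 95% confidence interval of the difference -0.15 to 0.19).

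Genes of cytotoxic granules were lower with EpA in 9 of 19 tested members, and 2 were higher, with a median of -0.18. *Nkg7*, a granule membrane protein, was called lower (-0.88), with 4.53 ± 0.519 FPKM with EpA, 8.40 ± 0.368 FPKM with fatostatin, and 8.02 ± 0.692 FPKM with DMSO (SD, n = 3), as were *Serpinb6b* (-0.83) and *Ctsw* (-0.69), which overlaps *Fibp* on the opposite strand. *Gzmb*, granzyme B, was lower with EpA than with fatostatin (117 against 139.6 FPKM, difference -0.25), with 147 FPKM in DMSO libraries. The sum of CD8 T and NK cell markers, cells that the naive CD4 T cell isolation is meant to remove, was also lower with EpA, and its part in this result was not tested. The median of the list was -0.12 without EpA replicate 2 and -0.12 without fatostatin replicate 2, -0.089 with a pseudocount of 1, and -0.10 among members that averaged 1 FPKM or more. Among checkpoint and activation receptors, 14 of 22 tested were lower with EpA and 5 higher (median -0.20). *Entpd1*, an ectonucleotidase that degrades ATP (-1.28), *Slamf6* (-1.03), and *Tigit* (-0.63) were called lower, and *Pdcd1*, which encodes PD-1, was lower by less than the fold threshold (9.06 against 12.2 FPKM, difference -0.43). *Cd69*, an early activation marker, did not pass the test (-0.053, 95% confidence interval -0.27 to 0.17).

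Genes of T cell receptor signaling were lower with EpA in 17 of 26 tested members and higher in 2, with a median of -0.16, and against DMSO 17 were lower and 2 higher with EpA, and 2 lower and 10 higher with fatostatin. *Rasgrp1*, which links the receptor to RAS, was measured at 28.6, 27.7, and 28.9 FPKM with EpA, at 57.0, 54.5, and 53.4 FPKM with fatostatin, and at 49.0, 51.0, and 49.1 FPKM with DMSO. The EpA libraries were the low ones, with a difference of -0.95 (SE 0.0282, adjusted p = 1.23e-09). *Cblb*, a ubiquitin ligase that restrains the receptor, differed by -0.90, below DMSO with EpA (-0.51) and above it with fatostatin (0.39). *Zap70*, the kinase next to the receptor, did not pass the test (50.2, 49.0, and 50.8 against 51.0, 53.2, and 51.8 FPKM, difference -0.058, 95% confidence interval -0.12 to 0.0050, adjusted p = 0.145).

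Early response genes, which follow receptor and ERK signals, had 6 of 19 tested members higher and 6 lower. *Nr4a2*, an orphan nuclear receptor (0.96), *Ier3* (0.89), and the AP-1 genes *Fosl2* (0.83) and *Junb* (0.60) were called higher with EpA. *Egr1* (-1.86), *Egr3* (-1.76), and *Nr4a3* (-0.98) were called lower. *Nr4a3* was measured at 2.63, 2.76, and 2.56 FPKM with EpA, at 5.36, 5.58, and 5.01 FPKM with fatostatin, and at 2.61 ± 0.00852 FPKM with DMSO (SD, n = 3), so that its fatostatin libraries were the high ones. *Nr4a2* was high with EpA instead (3.56 FPKM, against 1.79 FPKM with fatostatin and 1.45 FPKM with DMSO). *Egr1* was at 0.369 ± 0.0581 FPKM with EpA, 1.59 ± 0.0795 FPKM with fatostatin, and 0.996 ± 0.181 FPKM with DMSO (SD, n = 3). Of ERK feedback genes, 7 of 18 were lower with EpA and 2 higher (median -0.20, or -0.13 with a pseudocount of 1), including *Phlda1* (-0.97) and *Dusp6*, the cytoplasmic ERK phosphatase (-0.71). *Junb* overlaps *Prdx2* on the opposite strand.

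Cytokine receptor and JAK-STAT genes differed in both directions. Of 29 receptor genes, 7 were higher and 13 lower with EpA (2 and 3 called), and *Il9r*, the receptor of IL-9, was called lower (0.599 against 1.39 FPKM with fatostatin and 1.41 FPKM with DMSO, difference -1.08). *Il7r*, the receptor for the survival cytokine IL-7, was lower with a fold under 1.5 (-0.54). *Osm*, which encodes oncostatin M, was the called member of the JAK-STAT list (0.64), in which 7 of 21 were higher and 10 lower. Of 23 tested chemokine and chemokine receptor genes, 3 were higher (13.0%) and 5 lower (21.7%), shares near the 17.7% of all genes in each direction, with *Ccl17* higher (0.70) and *Cxcr6* lower (-0.75). Of the 23, 2 were called higher and 4 called lower, where 1.83% and 3.52% of all genes were called. *Ccl17* was above DMSO with each compound (1.30 with EpA and 0.59 with fatostatin).

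Genes of quiescent and memory T cells were lower with EpA in 18 of 25 tested members and higher in 2, with a median of -0.24. The median against DMSO was -0.075 with EpA and 0.14 with fatostatin, with 6 members above and 12 below DMSO with EpA, and 15 above and 4 below with fatostatin. *Klf2*, which keeps T cells quiescent, was called lower (1.35, 1.02, and 1.34 against 2.44, 3.16, and 3.14 FPKM, difference -1.18). *Lef1* and *Tcf7*, factors of naive and memory cells, were lower with smaller folds (-0.35 and -0.23). Integrin and adhesion genes were lower with EpA in 15 of 23 tested members and higher in 4, with a median of -0.28. *Itga4*, the α4 chain (-1.26), *Itgb3* (-0.93, 18.8, 18.8, and 18.6 against 37.3, 35.1, and 35.1 FPKM), and *Itgb2*, the β2 chain (-0.59, 94.1 against 142 FPKM), were among the 5 called lower. *Lgals3*, which encodes galectin-3, was called higher (0.97), though it was below DMSO with each compound (13.4 ± 0.427 FPKM with EpA, 6.76 ± 0.325 FPKM with fatostatin, and 23.9 ± 0.841 FPKM with DMSO, SD, n = 3).

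Interferon-stimulated genes were lower with EpA in 15 of 31 tested members (8 called) and higher in 5 (2 called), with a median of -0.16, which was -0.26 without fatostatin replicate 3 and between -0.22 and -0.17 without any other of the 6 libraries. *Iigp1* was measured at 2.81, 3.04, and 2.82 FPKM with EpA, at 9.78, 9.16, and 10.1 FPKM with fatostatin, and at 7.93, 7.33, and 7.52 FPKM with DMSO. *Gbp2*, a guanylate-binding protein, was at 12.5 ± 0.350 FPKM with EpA and 24.7 ± 0.425 FPKM with fatostatin (SD, n = 3, difference -0.98, adjusted p = 8.88e-09), and *Gbp3* and *Gbp7* differed by -1.14 and -1.42. *Mx1*, an antiviral GTPase, differed by -2.06, with 0.154 ± 0.0407 FPKM with EpA, 0.959 ± 0.138 FPKM with fatostatin, and 0.294 ± 0.0451 FPKM with DMSO (SD, n = 3). *Ifitm1* and *Ifitm3*, membrane proteins that hinder viral entry, were called higher (1.44 and 1.13), and both were below DMSO with fatostatin (-1.16 and -0.69). Genes of antigen presentation were lower with EpA in 15 of 22 tested members and higher in 1, with a median of -0.24. *Nlrc5*, the activator of class I genes, was called lower (-1.02), at 4.53, 4.26, and 4.29 FPKM with EpA and 9.27, 8.79, and 8.85 FPKM with fatostatin, around a DMSO level of 6.50 ± 0.285 FPKM (SD, n = 3). *Tap1*, the peptide transporter, and *B2m*, the light chain of class I molecules, were lower with smaller folds (-0.45 and -0.27), and *Tap1* overlaps *Psmb9* on the opposite strand. *H2-DMb1* of the class II pathway was called lower (-0.78). The B cell marker sum was lower with EpA too, in cells purified by a kit meant to remove B cells, and its part in this result was not tested.

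Genes that build ribosomes were higher with EpA with small folds. Of 48 tested genes of ribosome biogenesis, 43 were higher and 0 lower, with a median of 0.18. With EpA 42 of them were above DMSO and 0 below, and with fatostatin 3 were above and 5 below. *Ncl*, nucleolin, was measured at 272, 270.4, and 266 FPKM with EpA and at 214, 209, and 206 FPKM with fatostatin (difference 0.36, adjusted p = 2.41e-07), and *Mybbp1a*, a nucleolar protein, differed by 0.32. Of 77 tested genes of the mitochondrial ribosome, 53 were higher and 0 lower (median 0.18), with *Mrpl40* at 0.28. Of 76 cytosolic ribosomal protein genes, 3 were higher and 20 lower (median -0.050, or -0.033 and -0.028 without fatostatin replicates 2 and 3), with *Rps6* at -0.15.

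Glycolytic genes were higher with EpA in 13 of 24 and lower in 3 (median 0.11), with *Pgam1* at 278 against 223 FPKM and *Tpi1* at 551 against 451 FPKM. The glucose transporter *Slc2a1* differed by 0.32, and with fatostatin *Pgam1*, *Tpi1*, and *Slc2a1* did not pass the test against DMSO. Of 32 genes of the pentose phosphate pathway and the TCA cycle, 18 were higher and 1 lower (median 0.11), among them *Sdhb*, a subunit of succinate dehydrogenase (0.25). Of 83 genes of the respiratory chain, 21 were higher (25.3%) and 8 lower (9.64%), beside 17.7% of all genes in each direction. Their median was 0.036, or 0.019 without EpA replicate 2 and 0.018 without fatostatin replicate 1. Among them *Cox6b2* (-0.84) and *Cox4i2* (-0.66), tissue-restricted subunits of complex IV, were called lower. Proteasome genes were higher in 29 of 39 and lower in 1 (median 0.14), with *Psmc6* at 0.28. Of 42 lysosome and autophagy genes 9 were higher (21.4%) and 12 lower (28.6%), beside 17.7% of all genes in each direction. In this list *Gabarapl1*, a protein of autophagosomes, was at 0.54 and *Ctsd*, cathepsin D, at -0.34. *Tpi1* overlaps *Spsb2* on the opposite strand.

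Most heat shock and hypoxia genes were higher with EpA, and among genes of the unfolded protein response more were lower than higher. Of 18 tested heat shock genes, 15 were higher and 0 lower (median 0.25), and *Hsp90aa1* was measured at 423, 416, and 421 FPKM with EpA, at 310.2, 306, and 308 FPKM with fatostatin, and at 311 ± 4.52 FPKM with DMSO (SD, n = 3, difference 0.45, adjusted p = 3.86e-09). *Hspd1*, a mitochondrial chaperone, differed by 0.39 and overlaps *Hspe1* on the opposite strand. Of 20 tested genes of the hypoxia response, 16 were higher and 0 lower (median 0.26). *Hif1a*, the hypoxia factor itself, was at 122 ± 1.16 FPKM with EpA, 93.3 ± 0.192 FPKM with fatostatin, and 92.8 ± 0.463 FPKM with DMSO (SD, n = 3), and *Vegfa*, the angiogenic factor, was called higher (0.61). For heat shock and hypoxia genes the median of fatostatin against DMSO was -0.015 and -0.0014, and that of EpA was 0.22 and 0.29. Of 30 tested genes of the unfolded protein response, 16 were lower with EpA and 1 higher (median -0.11), including *Canx*, calnexin (-0.23), *Hspa5*, the chaperone BiP (-0.22), and *Derl3*, which was called (-1.57).

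The NRF2 list of antioxidant genes had 10 of 25 members higher and 3 lower (median 0.091), with *Nqo1* called higher and *Gsta4*, a glutathione transferase, called lower (0.0645 against 0.419 FPKM, from 2 to 4 and 16 to 28 reads per library). Of 17 heme genes, 4 were higher (23.5%) and 1 lower (5.88%), beside 17.7% of all genes in each direction. Their median was 0.033, or 0.082 and 0.062 without EpA replicates 1 and 3, and 0.093 and 0.055 without fatostatin replicates 2 and 3. The heme median was 0.065 among members that averaged 1 FPKM or more, 0.056 with a pseudocount of 0.01, and 0.055 by voom. *Cpox*, coproporphyrinogen oxidase, was the called one, at 46.6, 47.5, and 47.0 FPKM with EpA, 17.5, 16.3, and 16.4 FPKM with fatostatin, and 41.7 ± 0.160 FPKM with DMSO (SD, n = 3). Of 19 genes of metal handling, 8 were higher and 1 lower, including *Mt1*, a metallothionein (0.47), and *Tfrc*, the transferrin receptor (0.39).

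Between the compounds, genes of DNA replication and mitosis had medians near that of all genes. Of 44 genes of DNA replication, 8 were higher (18.2%) and 4 lower (9.09%) with EpA (median 0.016, or 0.027 without fatostatin replicate 2). Of 46 genes of mitosis, 15 were higher (32.6%) and 9 lower (19.6%), with a median of 0.034, beside 17.7% of all genes in each direction. Against DMSO, 18 mitosis genes were lower and 1 higher with EpA, and 22 were lower and 0 higher with fatostatin. For DNA replication these counts were 8 and 2 with EpA, and 7 and 2 with fatostatin. The mitotic genes *Cdk1* (0.21) and *Prc1* (0.32) were higher with EpA, and both were below DMSO with fatostatin. Tubulin genes were higher in 10 of 17 and lower in 1 (median 0.18, or 0.11 without fatostatin replicate 1), with a median against DMSO of -0.23 with fatostatin and -0.060 with EpA. *Tuba1b* was at 474, 475, and 501 FPKM with EpA, 369, 393, and 383 FPKM with fatostatin, and 522, 483, and 507 FPKM with DMSO, with no overlap between the compounds, and *Tubb2b* was called higher (1.10). Tubulin genes are close copies of each other, so the division of reads among them is uncertain. Of 17 genes of the BCL-2 family, 2 were higher and 7 lower with EpA (1 and 4 called). *Bok*, called higher (0.77), and *Bcl2a1b*, called lower (-0.91), averaged below 1 FPKM. *Bcl2l11*, which encodes the proapoptotic protein BIM, was called lower (0.923 against 1.74 FPKM, difference -0.85), as were *Bbc3* and *Bcl2a1d* (-0.68). *Bcl2a1b* and *Bcl2a1d* belong to a group of near-identical copies, so their reads are uncertain. *Bcl2*, the survival gene, was lower with a fold under 1.5 (-0.47).

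**Figure D5:**
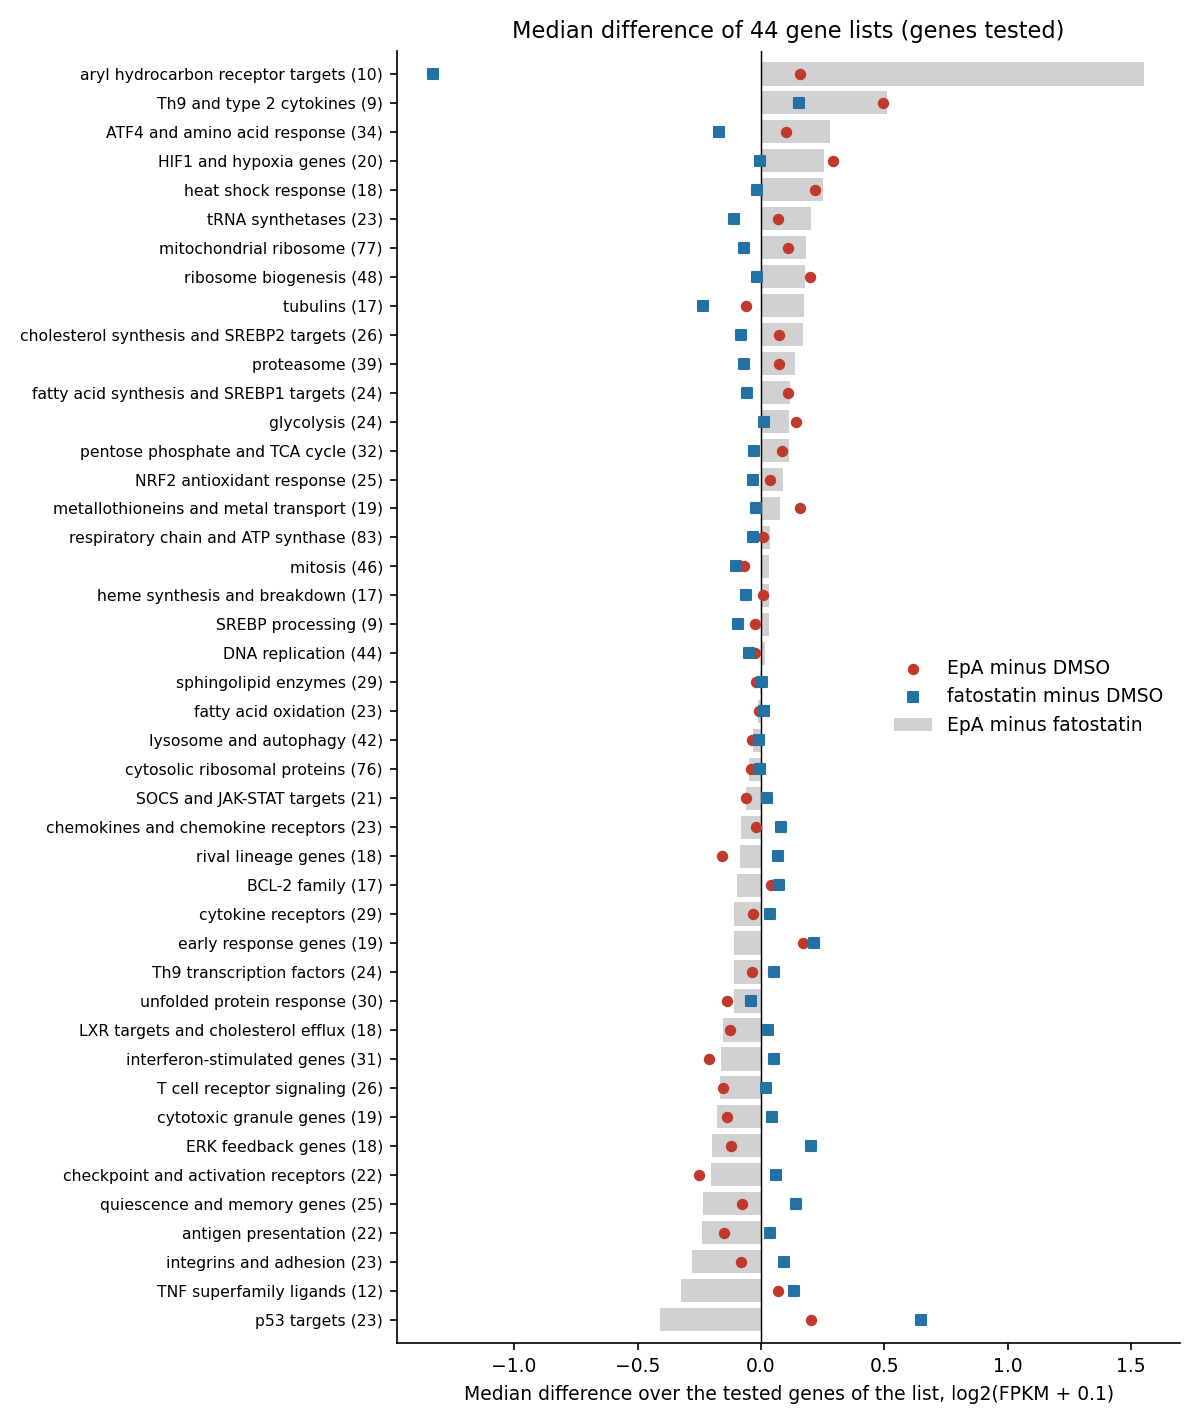
Median difference on the log2(FPKM + 0.1) scale over the tested genes of each of 44 gene lists, with grey bars for EpA minus fatostatin, red circles for EpA minus DMSO, and blue squares for fatostatin minus DMSO. The AHR targets lie at 1.55, with fatostatin at -1.33 against DMSO, and the p53 targets lie at -0.41, with fatostatin at 0.65.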

How the data were processed

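Th9 cells were sequenced in 12 TruSeq RNA libraries, 3 each with DMSO, EpA, fatostatin, or both. Per the study's methods, the authors used Trim Galore for trimming, HISAT2 for alignment to GRCm38, and featureCounts for counting, with tool versions given only in part, and the annotation release and strand use not given in the sources used here. They deposited FPKM values, without counts, in 1 table of 32352 lines for 32051 genes, in which 301 lines repeated 185 genes with the same values and were dropped. Low values stepped in whole reads, and 98.3% to 98.4% of values gave whole reads within a tolerance of 0.02, which set the depth of each library.

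Genes that averaged 0.1 FPKM or more in the 12 libraries were fitted as 4 group means on log2(FPKM + 0.1) with limma 3.58.1 in R 4.3.3 (empirical Bayes with a trend), with Benjamini-Hochberg adjustment over 13733 genes. The study's own tests were made on counts. The fit was tested on simulated data. Called genes had a fold of at least 1.5 beside an adjusted p below 0.05. Genes were named by rule: the 12 with the largest difference in each direction among called genes averaging 1 FPKM or more, no overlap between groups, and an established symbol, a set of genes fixed for the study, and for each list up to 3 called members with the largest difference or, with none, the 2 lowest adjusted p. Other list members were named after their values were seen. The comparison, the lists, and the tests were chosen with earlier results of these data known. The list symbols *Cd244*, *Ca9*, *Sgol1*, *Sgol2a*, and *Trac* were not matched. Alternatives changed the pseudocount, filter, scaling, variance model, libraries, replicate block, and fold threshold, and used voom on the recovered reads. Most list members enter only the counts and medians of their lists, and a few genes that the rule selects are not reported here.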

Additional observations from a re-analysis of the deposited data

How the results depend on the processing

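The number of genes called higher and lower with EpA (252 and 484) was 80 and 174 with a pseudocount of 1, 124 and 260 among the 10298 genes that averaged 1 FPKM or more, 927 and 1330 at a fold of 1.2, and 86 and 155 at a fold of 2. The numbers ranged from 222 to 248 and from 452 to 474 when 1 of the 6 libraries was left out, and under the other alternatives run they stayed within 1.5 times the main numbers, with 302 and 576 by voom on recovered reads as the largest. Of 3653 values of the 216 tested named genes, 3602 kept their direction and their side of the threshold, 42 (of *Il5*, *Scd2*, *Gzmf*, *Il17a*, *Tubb3*, *Hspa1b*, and *Fdps*) no longer passed, and 9 changed sign, all of genes that did not pass the test. These were *Fasl* without EpA replicate 3 (-0.011) and without fatostatin replicates 2 (-0.00081) and 3 (-0.0094), in a leave-one-out range up to 0.070, *Cd69* without fatostatin replicate 3 (0.012, in a range down to -0.17), and *Cdkn1a* with TPM scaling (-0.0045), by voom (-0.0015), and without EpA replicates 1 (-0.00043) and 2 (-0.0020) and fatostatin replicate 1 (-0.018, in a range up to 0.015). The cause was not tested. Each of 864 recomputed list medians was set against the SD of that list's median between libraries of a group. By this measure, which differs by list, 748 shifted by less than the SD and 116 by more. A small shift can thus count as moved, and a larger one as not moved. The medians of 4 of 51 lists changed sign under at least 1 alternative, among them fatty acid oxidation (0.0074 without EpA replicate 1) and sphingolipid enzymes (0.0042 without EpA replicate 2).

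Samples with the same replicate number correlated in their deviations from the group means by 0.0037, 0.053, and 0.074, and samples with unlike numbers by -0.086 to 0.034. EpA replicates 2 and 3 correlated best with their own number, and EpA replicate 1 did not. With 3 libraries in a group, these values cannot decide whether libraries of the same number shared an origin. A fit with the replicate number as a block called 247 genes higher and 479 lower. Depth limits the weakest genes: *Cyp1b1* held 0 to 4 reads in the fatostatin libraries, and its difference was 1.01 with a pseudocount of 1, 6.22 with 0.01, and 7.92 by voom. *Trgj1* (1 to 3 reads) and *Gsta4* (2 to 4 reads) were as weakly covered in the EpA libraries.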
